A study of Mus musculus with 4 samples.

Results

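The Slc25a genes encode the mitochondrial carrier family. They were taken as the probe sets whose single gene symbol on the array's platform was Slc25a followed by a number, which gave 46 genes of the 22180 named genes measured, with 1 probe set each. The samples were primary hepatocytes from 2-month-old male mice that lacked Chrebp (KO, the gene Mlxipl) or were wild type (WT). The cells were cultured serum-free for 16 h, with fructose at 25 mM or with none (control). The 4 groups, KO fructose, KO control, WT fructose and WT control, were each measured on 1 array, so no difference below has a replicate check and no p-value or error is given. The labels do not say whether cells of several mice were pooled, nor which part of Chrebp was deleted.

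Mitochondrial carriers sit in the inner mitochondrial membrane, which is otherwise closed to most metabolites, and exchange or import one class of cargo each. In the liver they link the citric acid cycle to fat synthesis in the cytosol, carry the ornithine of the urea cycle, move reducing equivalents through the malate-aspartate shuttle and admit fatty acids as acylcarnitines for oxidation. ChREBP is a sugar-responsive transcription factor that activates genes of glycolysis and fat synthesis. The members were grouped by cargo for this comparison.

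Values are log2 expression levels, so 1 unit is a factor of 2. A background level of 4.764 was set from 1105 olfactory receptor genes, and between 10368 and 10447 genes lay above it on each array. The hepatocyte markers were present: 7 of 7 (Alb, Apoa1, Ttr, Serpina1a, Cps1, Hnf4a and Tat) lay above background, with mean log2 levels of 10.76 in KO fructose, 10.23 in KO control, 10.69 in WT fructose and 10.19 in WT control. The higher means with fructose came mainly from Tat (2.01 in KO and 2.22 in WT) and Cps1 (1.40 in KO and 1.41 in WT). Serpina1a was higher by 0.61 in KO and 0.52 in WT, and Hnf4a differed by -0.50 in KO and -0.75 in WT. Alb, Apoa1 and Ttr differed by at most 0.14 in size. Mlxipl had log2 levels of 7.37 in KO fructose, 7.42 in KO control, 8.43 in WT fructose and 8.08 in WT control, lower on both KO arrays but well above background there. The probe set may lie outside the deleted part, so this is a limited check of the genotype.

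Of the 46 carriers, 31 lay above background on all 4 arrays and 34 on at least 1. The 12 that lay below it throughout, with log2 levels of at most 4.62, were Slc25a2, Slc25a18, Slc25a27, Slc25a29, Slc25a31, Slc25a34, Slc25a35, Slc25a36, Slc25a41, Slc25a43, Slc25a53 and Slc25a54. A reading below background does not by itself show that the RNA is absent, since a probe set can fail to report a gene. Slc25a31 encodes an ADP/ATP carrier known from testis, and Slc25a18 a glutamate carrier known mainly from brain. Slc25a14, an uncoupling protein-like carrier, was above background in KO control alone (4.85). Slc25a21, the oxodicarboxylate carrier, was above it on the KO arrays only (4.87 in KO fructose and 4.84 in KO control, against 4.75 in WT fructose and 4.35 in WT control). These last differences lie close to the background and are not read further.

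**Figure D1:**
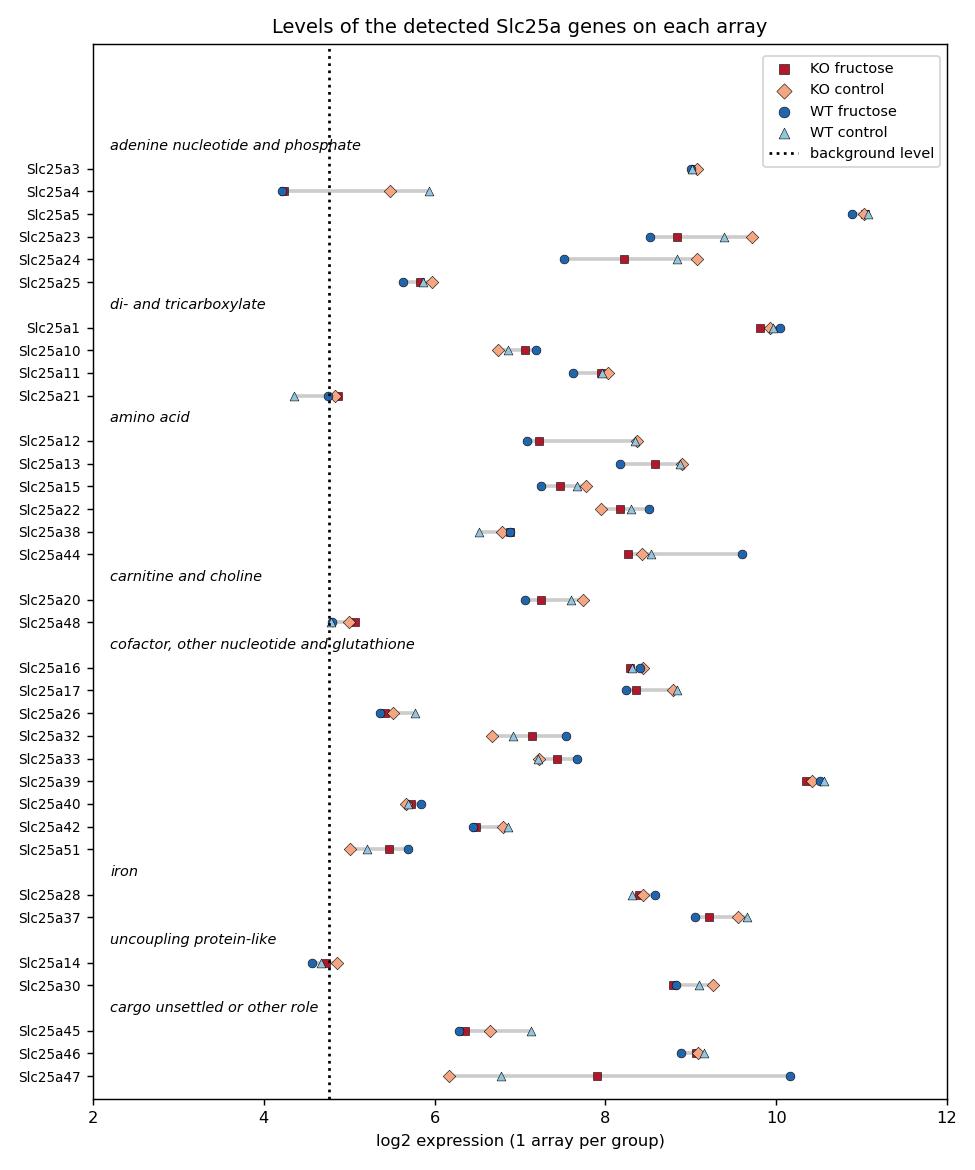
Log2 expression (x axis) of the 34 Slc25a genes above background on at least 1 array, grouped by cargo class (y axis). Each symbol is 1 array, grey bars span the 4 arrays, and the dotted line is the background of 4.764. Slc25a47 spans the widest range, and Slc25a4 lies below background on both fructose arrays.

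In WT hepatocytes, 2 of the 32 carriers above background in that comparison were at least 2-fold higher with fructose, Slc25a47 and Slc25a44, where 3.1% of all 10814 detected genes were that much higher. A further 3 were at least 2-fold lower, Slc25a4, Slc25a24 and Slc25a12, where 3.01% of all detected genes were. With members so few, these shares (6.25% and 9.38%) rest on single genes. At 1.5-fold, 3 carriers were higher (9.38%, against 9.46% of all detected genes) and 8 were lower (25%, against 10.8%). The 8 lower ones come from the adenine nucleotide, amino acid, cofactor and iron classes and from the carriers of unsettled cargo. The median difference of the carriers was -0.21, against -0.03 over all detected genes. It was -0.092 over all 46 carriers, without the filter on dim genes, and the mean of the detected carriers was -0.11. In all, 19 of 32 lay below 0 (59.4%, against 52.5%).

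In KO hepatocytes, 1 of 34 carriers was at least 2-fold higher with fructose, Slc25a47 (1.68% of all 10752 detected genes), and 2 were lower, Slc25a4 and Slc25a12 (1.18% of all detected genes). At 1.5-fold, Slc25a47 was still alone on the higher side (6.11% of all detected genes), and 4 carriers were lower (11.8%, against 5.75%). The median difference was -0.10, against -0.0041 over all detected genes. Differences below 0 were found for 23 of 34 carriers (67.6%, against 50.6%).

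The carriers' differences with fructose were set beside those of all detected genes and of other mitochondrial gene groups. The median absolute difference with fructose was 0.22 in KO cells, the same as over all detected genes (0.22), and 0.41 in WT cells, against 0.28 over all detected genes. Of all detected genes, 1.68% were 2-fold higher and 1.18% lower with fructose in KO, and 3.1% higher and 3.01% lower in WT. Of the oxidative phosphorylation subunits, 69 detected in KO and 70 in WT, 0 were 2-fold different in either genotype, with medians of -0.07 in KO and -0.11 in WT. The 22 detected protein import genes (Timm and Tomm) likewise had 0 at 2-fold, with medians of -0.08 in KO and -0.10 in WT. The 66 mitochondrial ribosome genes had medians of -0.14 in KO and -0.20 in WT, and 1 of them was 2-fold lower in WT. The medians of these groups thus lay below 0 along with that of the carriers, and no difference between the groups was tested. Median absolute differences were not taken for the other mitochondrial groups, so their size is not compared with that of the carriers.

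**Figure D2:**
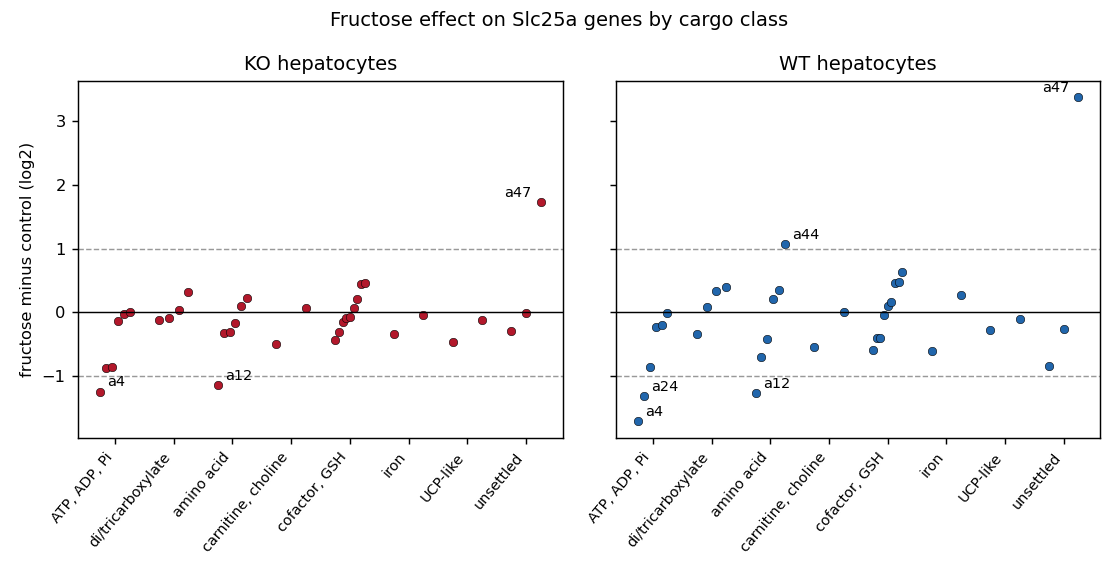
Fructose minus control (log2, y axis) for the 34 detected Slc25a genes, split by cargo class (x axis), in KO hepatocytes (left) and WT hepatocytes (right). Points are genes, dashed lines mark 2-fold, and labelled genes, such as a47 for Slc25a47, lie beyond it. The amino acid class reaches both dashed lines in WT only.

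Slc25a47, a liver-enriched carrier whose cargo is unsettled, had the widest range of any member. Its log2 level was 7.90 in KO fructose, 6.17 in KO control, 10.16 in WT fructose and 6.78 in WT control. Both fructose arrays were above both control arrays, and each KO array was below the WT array of the same medium. Fructose went with a 3.31-fold higher level in KO cells and a 10.4-fold higher level in WT cells. In fructose medium KO cells were 4.80-fold lower than WT cells, and in control medium 1.53-fold. The 2 fructose effects differed by -1.65 log2 units, as KO minus WT.

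Slc25a44, which carries branched-chain amino acids into mitochondria, had log2 levels of 8.26 in KO fructose, 8.43 in KO control, 9.60 in WT fructose and 8.53 in WT control. Only the WT fructose array stood apart, and the other arrays lay within 0.27 log2 units. Fructose went with a 1.12-fold lower level in KO cells and a 2.10-fold higher level in WT cells, a difference of effects of -1.23. In fructose medium KO cells were 2.53-fold lower than WT cells, and in control medium 1.08-fold.

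Slc25a47 and Slc25a44 were the carriers at least 2-fold lower in KO than in WT in fructose medium, 2 of 32 (6.25%, against 0.739% of all 10688 detected genes), and 0 carriers were 2-fold higher (0.543% of all detected genes). They were also the members whose fructose effect was at least 2-fold smaller in KO, 2 of 34 (0.588% of all 11050 detected genes), while 0 carriers differed 2-fold the other way (0.443%). At 1.5-fold, the same 2 carriers were lower in KO in fructose medium (2.86% of all detected genes), and 1, Slc25a24, was higher (2.45%). In control medium 0 of 34 carriers were 2-fold different in either direction (0.0373% of all 10720 detected genes higher and 0.196% lower). At 1.5-fold, Slc25a47 was lower in KO there (1.1% of all detected genes) and 0 carriers were higher (0.476%). The comparison in fructose medium and that of the fructose effects share arrays, so they are not separate evidence.

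The genotype differences came with other differences between the preparations. The mean log2 level of 8 macrophage markers was 6.21 in KO fructose and 6.19 in KO control, against 6.68 in WT fructose and 6.58 in WT control. As KO minus WT, 7 of 8 were below 0 in fructose medium (5080 of all 10688 detected genes). In control medium 6 of the 7 detected were (5575 of all 10720). Their summed linear signal was 2723 in KO fructose and 2578 in KO control, against 2290 in WT fructose and 2643 in WT control. That sum is mostly Cd68, the brightest marker, with log2 levels of 11.22 in KO fructose, 11.12 in KO control, 10.79 in WT fructose and 11.04 in WT control. All 8 were above background on at least 1 array. Of 7 endothelial markers, 5 were above background and Stab2 and Clec4g were not. Their summed linear signal was 523 in KO fructose and 561 in KO control, against 717 in WT fructose and 796 in WT control. Of the 6 stellate markers, Lrat, Des and Col1a2 lay below background on all arrays and Dcn, Col1a1 and Reln were above it on at least 1. Their summed linear signal was 169 in KO fructose and 157 in KO control, and 177 on each WT array. Of the 4 measured cholangiocyte markers, Krt19, Krt7 and Epcam lay below background on all arrays. The other, Sox9, had log2 levels of 10.21 in KO fructose, 9.39 in KO control, 10.30 in WT fructose and 9.82 in WT control, higher on both fructose arrays. The summed linear signal of that list was 1229 in KO fructose and 718 in KO control, against 1303 in WT fructose and 949 in WT control. This sum is mostly Sox9, so it rests on a single gene and is not read as a level of cholangiocytes. The part of other cell types in the carriers' differences was not tested, and in such bulk samples fewer cells of a type and less RNA per cell cannot be told apart.

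The promoter stretch of Slc25a47 is shown because it belongs to the carrier that differed most, and stretches of Slc25a1 and Slc25a13 because they hold the CACGTG letters of the E-box, a building block of the known ChREBP response element. Promoters are those of RefSeq on GRCm38.p6, 250 bases before to 50 after the start, and 36 of the 46 members matched by gene ID. Slc25a44 was not among those matched, so its promoter was not searched. CACGTG reads the same on both strands. It was present in 7 of 36 members (19.4%), against 8.09% of 27025 genes with a promoter in the table: Slc25a1, Slc25a13, Slc25a14, Slc25a15, Slc25a31, Slc25a33 and Slc25a36. None of these was 2-fold different in any of the 5 comparisons, and Slc25a13 alone reached 1.5-fold. Slc25a31 and Slc25a36 lay below background on all arrays, so they could not be counted, and Slc25a14 was above it on 1 array only. At most 3.1% of all detected genes passed 2-fold in one direction, so a count of 0 among so few is near the share over all genes. Slc25a47 held no CACGTG in this window. The one-base variant CATGTG, with CACATG on the other strand, was searched after this was seen. It was found in 3 of 36 members (8.33%, against 15.9% of all genes), at 145 and 96 bases before the Slc25a47 start, and overlapped no CACGTG there. A match describes letters only, and nothing follows from it for binding. Capitals mark CACATG or CATGTG in Slc25a47 (chr12:108850879-108851128, plus strand), and CACGTG in Slc25a1 (chr16:17928410-17928469, minus strand) and Slc25a13 (chr6:6217264-6217323, minus strand).
Slc25a47: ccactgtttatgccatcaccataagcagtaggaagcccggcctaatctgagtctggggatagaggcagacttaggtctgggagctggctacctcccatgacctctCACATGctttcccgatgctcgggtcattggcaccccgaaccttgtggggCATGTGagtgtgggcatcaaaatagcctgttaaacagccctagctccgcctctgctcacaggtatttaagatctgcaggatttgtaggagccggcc
Slc25a1: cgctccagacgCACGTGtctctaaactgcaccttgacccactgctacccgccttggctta
Slc25a13: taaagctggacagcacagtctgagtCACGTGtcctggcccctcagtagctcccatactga

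Among carriers of adenine nucleotides and phosphate, all 6 detected members had a difference below 0 with fructose in WT cells, with a median of -0.55. In KO cells 5 of 6 did, with a median of -0.50 (Slc25a5, at 0.010 in KO, was the exception). Of all detected genes, 52.5% in WT and 50.6% in KO were below 0. The WT differences of Slc25a3 (-0.017), Slc25a5 (-0.19) and Slc25a25 (-0.23) were small. Slc25a4, the ADP/ATP carrier of heart and muscle, had log2 levels of 4.23 in KO fructose, 5.48 in KO control, 4.22 in WT fructose and 5.93 in WT control. Both fructose arrays lay below background, so its level was at least 1.64-fold lower with fructose in KO cells and at least 2.24-fold lower in WT cells. The KO call at 2-fold therefore rests on a value below background.

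The calcium-regulated ATP-Mg/phosphate carriers accounted for the other large differences in that class. Slc25a24 had log2 levels of 8.22 in KO fructose, 9.08 in KO control, 7.52 in WT fructose and 8.83 in WT control, both fructose arrays below both control arrays. That was 1.82-fold lower with fructose in KO cells and 2.49-fold lower in WT cells, and KO cells were 1.62-fold higher than WT cells in fructose medium. Slc25a23 had log2 levels of 8.84 in KO fructose, 9.72 in KO control, 8.52 in WT fructose and 9.38 in WT control, 1.84-fold lower with fructose in KO and 1.82-fold in WT. The fructose effect on Slc25a23 was thus of nearly one size in both genotypes. Slc25a25, the third of these carriers that was detected, differed by -0.14 in KO and -0.23 in WT.

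Slc25a5 and Slc25a3 differed little between the arrays, unlike Slc25a4. Slc25a5, the widely expressed ADP/ATP carrier, had log2 levels of 11.04 in KO fructose, 11.03 in KO control, 10.88 in WT fructose and 11.08 in WT control. Slc25a3, the phosphate carrier, spanned 0.077 log2 units over the 4 arrays, the smallest span of any detected member.

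Amino acid carriers went both ways. Slc25a12 (aralar) and Slc25a13 (citrin) exchange aspartate for glutamate in the malate-aspartate shuttle, and citrin is the main form in liver. Slc25a12 had log2 levels of 7.22 in KO fructose, 8.37 in KO control, 7.08 in WT fructose and 8.35 in WT control, so the arrays divided by medium, with little between the genotypes. It was 2.21-fold lower with fructose in KO cells and 2.41-fold lower in WT cells. Slc25a13 had log2 levels of 8.58 in KO fructose, 8.90 in KO control, 8.17 in WT fructose and 8.87 in WT control, 1.25-fold lower with fructose in KO and 1.62-fold in WT.

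Both cytosolic enzymes of that shuttle lay on the other side of 0 from Slc25a12 and Slc25a13. Mdh1, cytosolic malate dehydrogenase, was higher with fructose by 0.90 in KO and 1.03 in WT, and Got1, cytosolic aspartate aminotransferase, by 0.48 in KO and 1.04 in WT. The mitochondrial forms were mixed, Mdh2 by 0.22 in KO and 0.35 in WT and Got2 by -0.24 in KO and -0.05 in WT. Slc25a11, the oxoglutarate carrier of the same shuttle, differed by -0.08 in KO and -0.35 in WT. Gpd2, the mitochondrial enzyme of the parallel glycerol phosphate shuttle, differed by 0.04 in KO and 1.15 in WT, and Gpd1, its cytosolic partner, by -0.77 in KO and 0.06 in WT.

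The ornithine carrier of the urea cycle, Slc25a15, had log2 levels of 7.47 in KO fructose, 7.78 in KO control, 7.25 in WT fructose and 7.66 in WT control, a difference with fructose of -0.31 in KO and -0.41 in WT. Cps1, the first enzyme of the cycle, was higher by 1.40 in KO and 1.41 in WT, and Arg1, arginase, by 1.12 in KO and 0.82 in WT. Otc, which uses the imported ornithine, differed by -0.20 in KO and -0.12 in WT. Asl differed by 0.11 in KO and 0.39 in WT, and Nags by -0.21 in KO and -0.17 in WT. Ass1 read below background on all arrays. That does not show that the cells lacked its RNA, since a probe set can fail to report a gene. The carrier thus lay on the other side of 0 from Cps1, Arg1 and Asl, and on the same side as Otc and Nags. The glutamate carrier Slc25a22 differed by 0.23 in KO and 0.21 in WT, and the glycine carrier Slc25a38, needed for heme synthesis, by 0.10 in KO and 0.35 in WT.

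Carriers of di- and tricarboxylates, which connect the citric acid cycle to the cytosol, held 0 members at 1.5-fold in the 4 direct comparisons, of 3 detected for fructose in WT and 4 in each of the others. With at most 10.8% of all detected genes past that fold in one direction, a count of 0 among so few is near the share over all genes. Slc25a1, the citrate carrier that exports the substrate of fat synthesis, had log2 levels of 9.81 in KO fructose, 9.93 in KO control, 10.05 in WT fructose and 9.96 in WT control. The order of these arrays does not follow the medium, and its fructose effect was -0.12 in KO and 0.08 in WT. The listed enzymes downstream of it differed more in WT. Acly, which cleaves the exported citrate, differed by -0.25 in KO and 1.81 in WT, and Acaca, which makes malonyl-CoA, by -0.20 in KO and 1.82 in WT. Fasn differed by 0.29 in KO and 1.76 in WT, Me1 by 0.06 in KO and 0.84 in WT, and Acacb by 0.16 in KO and 0.36 in WT. Cs, citrate synthase on the mitochondrial side, differed by -0.07 in KO and 0.12 in WT. The dicarboxylate carrier Slc25a10 differed by 0.32 in KO and 0.33 in WT.

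Slc25a20, the carnitine-acylcarnitine carrier of fatty acid oxidation, had log2 levels of 7.24 in KO fructose, 7.74 in KO control, 7.06 in WT fructose and 7.59 in WT control. Both fructose arrays lay below both control arrays, 1.41-fold lower in KO cells and 1.45-fold in WT cells. All 4 listed genes of the carnitine shuttle were below 0 with fructose in both genotypes, with medians of -0.53 in KO and -0.72 in WT. The share of all detected genes below 0 was 50.6% in KO and 52.5% in WT. Cpt2, which acts next to the carrier, differed by -0.61 in KO and -0.56 in WT, and Slc22a5, the carnitine importer of the plasma membrane, by -0.45 in KO and -0.88 in WT. Slc25a48, linked to choline import, lay close to background on all arrays (4.79 to 5.06).

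**Figure D3:**
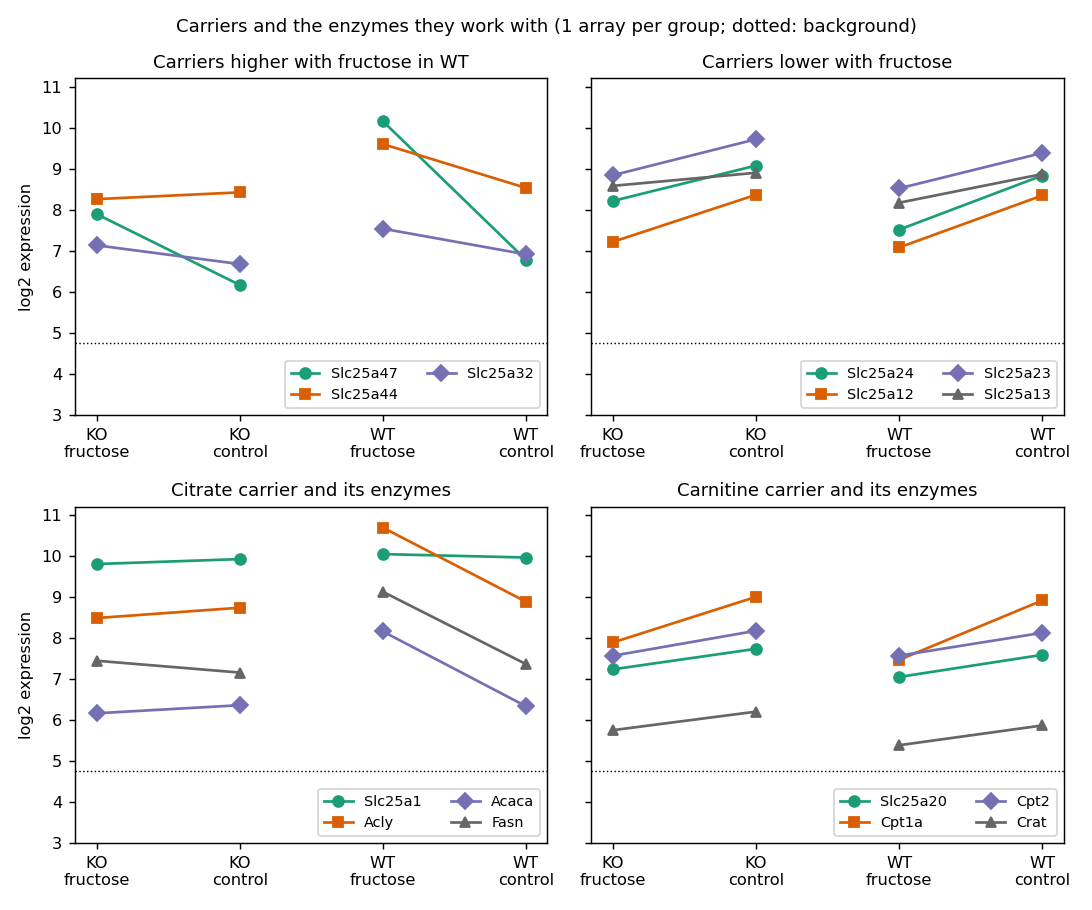
Log2 expression (y axis) on the 4 arrays (x axis) of carriers higher with fructose in WT, carriers lower with fructose, and the citrate and carnitine carriers with enzymes they work with. Lines join the fructose and control arrays of a genotype, and the dotted line is background. Slc25a1 stays near 10 while Acly, Acaca and Fasn are higher on the WT fructose array, and Slc25a20 lies lower on both fructose arrays together with Cpt1a, Cpt2 and Crat.

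Carriers of cofactors, nucleotides other than ATP and ADP, and glutathione made up the largest class, with 9 of 10 members detected and a median fructose effect of -0.07 in KO and 0.09 in WT. Slc25a32, the mitochondrial folate carrier, had log2 levels of 7.14 in KO fructose, 6.68 in KO control, 7.54 in WT fructose and 6.91 in WT control, 1.37-fold higher with fructose in KO and 1.54-fold in WT. Slc25a51, the mitochondrial NAD carrier, was higher by 0.45 in KO and 0.48 in WT, and Slc25a33, a pyrimidine nucleotide carrier, by 0.21 in KO and 0.45 in WT. These 3 carriers were higher with fructose in both genotypes.

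On the lower side of the same class, Slc25a17, a carrier of the peroxisome rather than the mitochondrion, had log2 levels of 8.35 in KO fructose, 8.79 in KO control, 8.24 in WT fructose and 8.84 in WT control. That was 1.36-fold lower with fructose in KO and 1.51-fold in WT. Slc25a42, which carries coenzyme A, differed by -0.32 in KO and -0.41 in WT. Slc25a26, the carrier of S-adenosylmethionine, differed by -0.08 in KO and -0.41 in WT. Slc25a39, required for mitochondrial glutathione import, varied little, with log2 levels of 10.35 in KO fructose, 10.42 in KO control, 10.51 in WT fructose and 10.55 in WT control.

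The mitoferrins import iron for heme and iron-sulfur clusters. Slc25a37 (mitoferrin 1) had log2 levels of 9.21 in KO fructose, 9.55 in KO control, 9.05 in WT fructose and 9.66 in WT control, 1.27-fold lower with fructose in KO and 1.53-fold in WT. Its paralogue Slc25a28 (mitoferrin 2) differed by -0.05 in KO and 0.27 in WT. Fech, the last enzyme of heme synthesis, differed by -0.63 in KO and -0.49 in WT, whereas Alas1, the first and rate-limiting enzyme, differed by 0.04 in KO and 0.05 in WT.

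Among the remaining members, Slc25a45, whose cargo is unsettled, had log2 levels of 6.36 in KO fructose, 6.65 in KO control, 6.28 in WT fructose and 7.13 in WT control. WT control was the highest of the arrays, and the gene was 1.23-fold lower with fructose in KO and 1.79-fold in WT. Slc25a30, an uncoupling protein-like carrier, had log2 levels of 8.79 in KO fructose, 9.26 in KO control, 8.82 in WT fructose and 9.09 in WT control. Slc25a46, an outer membrane protein of mitochondrial dynamics rather than a known transporter, had log2 levels of 9.06 in KO fructose, 9.08 in KO control, 8.89 in WT fructose and 9.16 in WT control.

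Across the 34 detected carriers, the fructose effects in KO and WT cells, which come from separate arrays, had the same sign for 29 (85.3%, against 77.6% of all detected genes). The effect was larger in WT than in KO for 25 carriers (73.5%, against 63% of all detected genes). The correlation of the 2 effects across genes was 0.92 (Spearman 0.85), and 0.86 without Slc25a47; genes are not independent replicates. The 5 carriers of opposite sign were Slc25a1, Slc25a5, Slc25a16, Slc25a28 and Slc25a44. The sign of Slc25a5 in KO was not stable (0.010, or -0.030 with repeated quantile normalization). Apart from Slc25a44, none of the 5 exceeded 0.27 in size in either genotype. Of the 8 carriers chosen here as at least 1.5-fold lower with fructose in WT, all 8 were below 0 in KO and 4 were 1.5-fold lower there. Of all 1172 genes that pass the same WT threshold, 96.8% were below 0 in KO and 41.8% were 1.5-fold lower, so the carriers' shares lie near those of all genes. A further 23 detected carriers stayed within 1.5-fold in the 4 direct comparisons, spanning 0.077 to 0.68 log2 units over the 4 arrays, with a median span of 0.36.

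**Figure D4:**
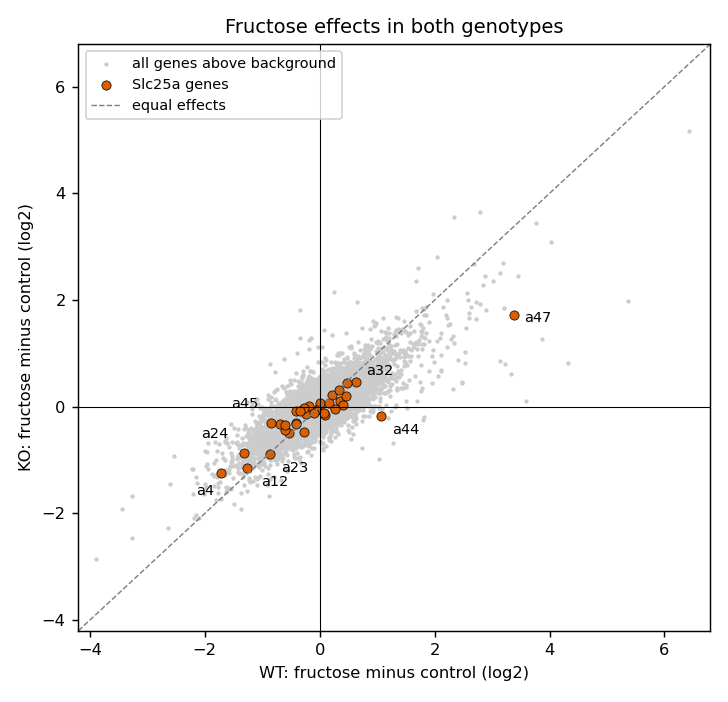
Fructose minus control (log2) in KO hepatocytes (y axis) against WT hepatocytes (x axis) for the 34 detected Slc25a genes (orange) and all 11050 genes above background on any array (grey). The dashed line marks equal effects. Slc25a47 (1.73 in KO, 3.38 in WT) and Slc25a44 (-0.17 in KO, 1.07 in WT) lie furthest below it, and the carriers that were lower with fructose in WT lie near it or above it.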

How the data were processed

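The authors deposited a table of log2 levels, 1 per probe set and array. The submitters' processing notes name RMA (robust multi-array average) and version 3.4.0 of R. RMA subtracts background and makes the arrays' distributions alike, so a shift shared by all genes cannot be seen. Labelling with biotin started from 400 ng of RNA, per the labels. The genome build and annotation version were not given in the sources used here.

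Of 41345 probe sets, 23521 had 1 gene symbol, 1814 had several and 16010 were unnamed here. Entrez numbers matched 23328 probe sets, and all 46 carriers, to RefSeq names. Probe sets of a gene were averaged. Close paralogues such as Slc25a4 and Slc25a5 can share probes.

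Background was percentile 95 of the mean olfactory receptor level. A gene counted in a comparison when above it on at least 1 array compared. Folds against a value below it are "at least". Differences of log2 values were counted at 2-fold, and at 1.5-fold as an alternative, in 5 comparisons. No test was made, since each group has 1 array and an additive fit of genotype and medium would take the difference of fructose effects as its error. Precision is limited by the number of arrays. Alternatives were 2 other scalings, 2 other filters, other fold thresholds, the brightest probe set and the mean. The counting was checked on simulated data. Python 3.11.15 and pandas 2.3.3 were used.

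Carriers named with 4 levels were those 1.5-fold different in any direct comparison and the one with the highest mean in each cargo class. Slc25a15 and Slc25a21 were added after their values were seen. Members, cargo classes and lists were chosen with earlier results of these data known.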

Additional observations from a re-analysis of the deposited data

Results flagged for a closer look

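Slc25a44 was singled out because its fructose effects had opposite signs in the genotypes, -0.17 in KO and 1.07 in WT, a difference of -1.23 log2 units. The KO value is smaller in size than the median absolute difference of all detected genes in KO, 0.22. It is therefore not read as a fall in KO cells. The difference was not tested, since each group has 1 array.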

How the results depend on the processing

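Leaving out an array was not possible, and no log2 difference has an error. No paired test was made, since its only error would be the difference of fructose effects between the genotypes. A value was taken as unchanged when it moved by at most 0.1 log2 units, or a count by at most 1.5 times. That held for 101 of 115 counts and medians, and for 338 of 340 differences of the 17 named carriers. Much of the second total was fixed beforehand, so it says little about stability. In the first total, counts and medians with the brightest probe set could change only through the background level. The brightest probe set gave 85 of the 340 differences and could change none. Raising values to the background gave another 85 and could change only those of Slc25a4. Median centring and repeated quantile normalization moved no named difference by more than 0.067, and the brightest probe set changed nothing, since each carrier has 1. RMA had already made the arrays alike, with median levels from 4.57 in KO fructose to 4.59 in WT fructose. These other scalings thus had little room to move a difference. Differences near 0 of 3 carriers changed sign, Slc25a5 and Slc25a20 with quantile normalization and Slc25a23 with median centring. At 1.5-fold, carriers lower with fructose numbered 4 in KO and 8 in WT, and 1 carrier each was lower in KO in control medium and higher in KO in fructose medium. At 3-fold, 0 were lower with fructose in KO, 1 was lower (Slc25a4, on a value below background, with a bound of 2.24-fold) and 1 higher in WT, 1 was lower in KO in fructose medium, and 1 had a smaller effect in KO. A background 1 log2 unit higher, or values raised to the background (added after the data were seen), left 1 carrier lower with fructose in KO, Slc25a12. With raised values Slc25a4 differed by -0.72 in KO and -1.17 in WT. The WT fructose median was -0.092 without the filter on dim genes and -0.11 as a mean. The median of KO minus WT in fructose medium, 0.058, became -0.064 as a mean.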

Other observations

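Family proteins that carry other symbols were measured too. Mtch1, an outer membrane protein of this family, had log2 levels of 6.91 in KO fructose, 7.86 in KO control, 6.74 in WT fructose and 7.92 in WT control, lower on both fructose arrays, with differences of -0.95 in KO and -1.18 in WT. Its paralogue Mtch2, an insertase of the outer membrane, differed by -0.03 in KO and -0.24 in WT. Ucp1 and Ucp3 lay below background on all arrays, and Ucp2 was not analysed here. Of the carriers outside the family, the sideroflexin Sfxn2 differed by -0.75 with fructose in KO and -1.15 in WT, and Sfxn1, a serine carrier, by -0.55 in KO and -0.54 in WT. Mpc1, a subunit of the mitochondrial pyruvate carrier, differed by -0.08 in KO and -0.15 in WT. All 5 detected genes of that list were below 0 with fructose in both genotypes, against 50.6% of all detected genes in KO and 52.5% in WT.

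In the RefSeq gene table, 4 pairs of members are next to each other among protein-coding genes: Slc25a29 and Slc25a47, Slc25a41 and Slc25a23, Slc25a54 and Slc25a24, and Slc25a43 and Slc25a5. In each pair the first named lay below background on all 4 arrays and the second above it on all 4. Of all 46 members, 12 lay below background on all arrays and 31 above it on all. With so few pairs, no pattern of neighbours is read from this. A probe set listed for both Rangrf and Slc25a35 had log2 levels of 4.68 in KO fructose, 4.65 in KO control, 4.53 in WT fructose and 4.69 in WT control, all below background.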
